A study of Mus musculus with 6 samples.

Results

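The MHC class I heavy chain genes, the genes that load peptide onto class I molecules and the immunoproteasome subunits were followed in primary and metastatic mouse ovarian tumours. Of the 10 genes in this group (H2-K1, H2-D1, B2m, Tap1, Tap2, Tapbp, Psmb8, Psmb9, Psmb10 and Nlrc5), 9 had a probe set that the platform annotation gives a single gene symbol, out of 30142 genes tested. The probe set of Nlrc5, the transactivator of class I genes, also carries the symbol of a microRNA gene, and no value is given for it. Each of the 9 genes had 1 such probe set. That of H2-D1 carries 2 Entrez Gene identifiers, and class I heavy chain genes are close paralogs, so the values of H2-K1 and H2-D1 may include signal of related copies.

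The tumours came from 3 mice, C1M3, C1M5 and C2M3, that carried ID8-VEGF cells beneath the bursa of the ovary. ID8 cells descend from the surface epithelium of the mouse ovary, and the ID8-VEGF variant makes extra vascular endothelial growth factor. Each mouse gave 1 late primary and 1 late metastatic tumour, each measured on 1 whole-transcriptome array, so 3 primary tumours were compared with 3 metastatic tumours. All 6 tumours carry the same injected line, and no group without tumour was analysed here. The strain and age of the mice and the site of each metastasis are not given in the labels. For the primary tumour of C2M3 the source name reads C2M2, and the donor label and title, which name C2M3, were followed.

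MHC class I molecules sit on nearly all nucleated cells and show fragments of the cell's own proteins to CD8+ T cells and NK cells. Peptides are cut by the proteasome, whose catalytic subunits are exchanged for immunoproteasome subunits under interferon gamma, then pumped into the endoplasmic reticulum by the TAP transporter and loaded onto the heavy chain and its light chain. Tumour cells often express this pathway at a low level, while leukocytes express it strongly.

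Promoter sequences were taken from RefSeq on the GRCm38.p6 build, from 250 bases before to 50 bases after the gene start, and were present for 8 of the 9 genes. Of the 8, 5 are shown because they hold the motif matches found or, for Tap1, because the window is shared with a second member. Capitals mark matches, on either strand, to GAAA, any 2 bases and GAAA (the core of the interferon-stimulated response element), to TTC, any 3 bases and GAA (a STAT site) or to GGGA, any 4 bases and CC (an NF-kB site). Overlapping matches are merged into 1 run of capitals.
H2-K1, chr17:34000298-34000597, minus strand: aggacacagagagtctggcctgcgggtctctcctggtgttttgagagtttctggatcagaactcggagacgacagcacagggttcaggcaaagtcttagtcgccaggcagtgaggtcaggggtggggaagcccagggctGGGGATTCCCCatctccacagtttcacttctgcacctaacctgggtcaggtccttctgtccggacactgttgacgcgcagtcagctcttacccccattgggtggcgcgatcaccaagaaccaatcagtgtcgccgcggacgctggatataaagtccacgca
H2-D1, chr17:35262844-35263143, plus strand: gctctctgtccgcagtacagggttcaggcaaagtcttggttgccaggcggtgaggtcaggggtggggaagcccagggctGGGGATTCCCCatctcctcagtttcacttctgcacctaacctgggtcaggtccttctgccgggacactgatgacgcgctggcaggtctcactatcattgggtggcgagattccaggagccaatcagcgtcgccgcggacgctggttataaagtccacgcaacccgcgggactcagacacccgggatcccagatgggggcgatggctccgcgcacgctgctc
B2m, chr2:122147437-122147736, plus strand: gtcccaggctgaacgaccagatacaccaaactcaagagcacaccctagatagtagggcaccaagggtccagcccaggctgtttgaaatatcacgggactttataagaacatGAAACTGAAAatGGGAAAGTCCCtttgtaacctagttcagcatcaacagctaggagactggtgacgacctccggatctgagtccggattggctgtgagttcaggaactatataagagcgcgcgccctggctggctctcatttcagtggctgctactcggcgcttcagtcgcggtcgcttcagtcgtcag
Psmb8, chr17:34197945-34198244, plus strand: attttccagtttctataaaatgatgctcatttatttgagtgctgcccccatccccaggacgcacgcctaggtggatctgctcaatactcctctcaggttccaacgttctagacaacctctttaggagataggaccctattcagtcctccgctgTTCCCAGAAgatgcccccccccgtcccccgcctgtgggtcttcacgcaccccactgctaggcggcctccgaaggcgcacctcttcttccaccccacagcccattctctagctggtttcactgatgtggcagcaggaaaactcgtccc
Tap1, chr17:34187306-34187605, plus strand: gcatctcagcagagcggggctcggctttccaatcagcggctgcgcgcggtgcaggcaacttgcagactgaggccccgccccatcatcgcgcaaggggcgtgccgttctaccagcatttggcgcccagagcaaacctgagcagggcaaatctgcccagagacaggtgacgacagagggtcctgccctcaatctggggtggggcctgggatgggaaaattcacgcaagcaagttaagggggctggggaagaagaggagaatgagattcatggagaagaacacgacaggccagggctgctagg
An NF-kB match was found for 3 of the 8 genes, namely B2m, H2-D1 and H2-K1, against 20.7% of the 32851 promoters in the table. B2m was the only one of the 8 with the interferon element core, which 3.44% of all promoters held, and Psmb8 the only one with a STAT match, which 8.30% held. The 8 matched genes are a small number for a share, and a match shows letters in a window, not a bound site. These strict letters can also miss variant sites, so a window without a match, such as that of H2-K1 or H2-D1 for the interferon core, may still hold an element. The windows of H2-K1 and H2-D1 share an unbroken run of 47 bases that contains the NF-kB match. Tap1 and Psmb9 start 226 bases apart on opposite strands, and 275 bases of their windows are the same DNA. In the gene order of that assembly, Psmb9, Tap1, Psmb8 and Tap2 are direct neighbours on chromosome 17, where 7 of the 9 genes lie. B2m lies on chromosome 2 and Psmb10 on chromosome 8.

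Values are log2 signals per probe set, on which a step of 1 is a 2-fold change, and differences are metastatic minus primary. The median over all genes tested lay between 4.90 and 5.15 in the 6 arrays, and all 9 genes lay above it in every array. The primary tumour of C1M3 stood apart from the other primary tumours, so mean differences between the tissues are also given without it. It also received the lowest weight of the 6 arrays when limma estimated array weights, 0.26 against 0.73 to 2.28. Precision is limited by the number of arrays. Unless stated, SE and limma p-values are from a fit with tissue as the only term, which does not use the pairing by mouse. Where nothing is said of the order, values are given for C1M3, C1M5 and C2M3.

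All 9 genes had their lowest value in the primary tumour of C1M3 and a higher mean in metastatic than in primary tumours. Mean differences ran from 0.19 for Tapbp to 0.89 for B2m, or 1.14-fold to 1.86-fold. In C1M3 the metastatic tumour was higher for all 9 genes, by 0.52 to 2.76, while in C1M5 and C2M3 the differences lay between -0.63 and 0.52. No difference passed the test: with limma, 0 of the 9 genes and 0% of all genes tested had an adjusted p under 0.05, and 0 of the 9 had an unadjusted p under 0.05, against 4.21% of all genes, or 2.88% counting only those higher in metastatic tumours. The mean was higher in metastatic tumours for 55.0% of all genes. A 2-fold higher mean was reached by 0 of the 9 genes and 1.61% of all genes.

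The heavy and light chains had the widest differences. H2-K1, which encodes the class I heavy chain K, had log2 signals of 9.62, 10.80 and 11.34 in the primary tumours of C1M3, C1M5 and C2M3. In the metastatic tumours it had 11.24, 11.04 and 11.45. Only the primary tumour of C1M3 lay clearly below the rest, and the groups overlapped. The primary tumours had a mean of 10.59 ± 0.88 (SD, n = 3) and the metastatic tumours one of 11.25 ± 0.20. The difference of H2-K1 was 0.66 (SE 0.47, limma adjusted p = 0.842). H2-D1, the heavy chain D, had 9.66, 11.25 and 11.75 in primary and 11.50, 11.47 and 11.65 in metastatic tumours, in the same order of mice. The 5 arrays other than the primary tumour of C1M3 were close to each other, and the highest was the primary tumour of C2M3. The difference of H2-D1 was 0.65 (SE 0.57, limma adjusted p = 0.842).

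B2m encodes beta-2 microglobulin, the light chain that every class I molecule needs to reach the cell surface. Its log2 signals were 15.46, 17.26 and 18.00 in primary and 18.23, 17.15 and 18.03 in metastatic tumours of C1M3, C1M5 and C2M3. The tumours of C1M3 held both the lowest and the highest value. The difference was 0.89 (SE 0.74, limma adjusted p = 0.842), with a 95% interval from -1.01 to 2.79. Within C1M3 the metastatic tumour was higher by 2.76, within C1M5 it was lower, with a difference of -0.11, and within C2M3 the difference was 0.03.

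Tap1 and Tap2 encode the paired chains of the transporter that carries peptides into the endoplasmic reticulum. Tap1 had log2 signals of 6.67, 7.46 and 7.58 in primary and 8.14, 7.41 and 7.65 in metastatic tumours of C1M3, C1M5 and C2M3. As for B2m, the lowest and the highest array came from C1M3, and the groups overlapped. Its difference was 0.50 (SE 0.32, limma adjusted p = 0.842). Tap2 had 6.11, 6.90 and 6.90 in primary and 6.90, 7.15 and 6.97 in metastatic tumours. The value 6.90 is identical in 3 arrays, and the primary tumour of C1M3 is the 1 array below it. The difference of Tap2 was 0.37 (SE 0.25, limma adjusted p = 0.842) and was positive in every mouse, at 0.78, 0.26 and 0.07.

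Tapbp encodes tapasin, which holds empty class I molecules beside the transporter until a peptide fits. It had log2 signals of 9.12, 11.23 and 10.59 in primary and 10.17, 10.59 and 10.75 in metastatic tumours of C1M3, C1M5 and C2M3. Its highest array was the primary tumour of C1M5, and it was the gene that departed most from the pattern of the others. The difference was 0.19 (SE 0.58, limma adjusted p = 0.947). Within C1M5 it was -0.63, against 1.05 in C1M3 and 0.16 in C2M3.

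The immunoproteasome subunits differed by 0.31 to 0.37, and Psmb8 and Psmb9 had the smallest standard errors of the 9 genes. Psmb8, which replaces the constitutive subunit Psmb5, had log2 signals of 5.79, 6.28 and 6.29 in primary and 6.31, 6.49 and 6.49 in metastatic tumours of C1M3, C1M5 and C2M3. It was the 1 gene of the 9 whose groups did not overlap, a pattern in the higher direction that 4.79% of all genes showed. The lowest metastatic value exceeded the highest primary value by a small margin, 6.31 against 6.29. The difference of Psmb8 was 0.31 (SE 0.16, limma adjusted p = 0.842), or 0.52, 0.21 and 0.19 within the mice.

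Psmb9, which takes the place of Psmb6, had log2 signals of 6.37, 6.77 and 6.82 in primary and 7.04, 6.82 and 7.18 in metastatic tumours. The metastatic tumours of C1M3 and C2M3 were the highest, and the metastatic tumour of C1M5 lay level with the primary tumours of C1M5 and C2M3. Its difference was 0.36 (SE 0.16), with the smallest unadjusted limma p of the 9 genes, 0.0782, and an adjusted p of 0.842. Psmb10, which takes the place of Psmb7, had 6.88, 7.57 and 7.97 in primary and 7.45, 7.57 and 8.49 in metastatic tumours. Both tumours of C1M5 had the identical value 7.57, and in each tissue C2M3 was highest and C1M3 lowest. The difference of Psmb10 was 0.37 (SE 0.41, limma adjusted p = 0.846).

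**Figure D1:**
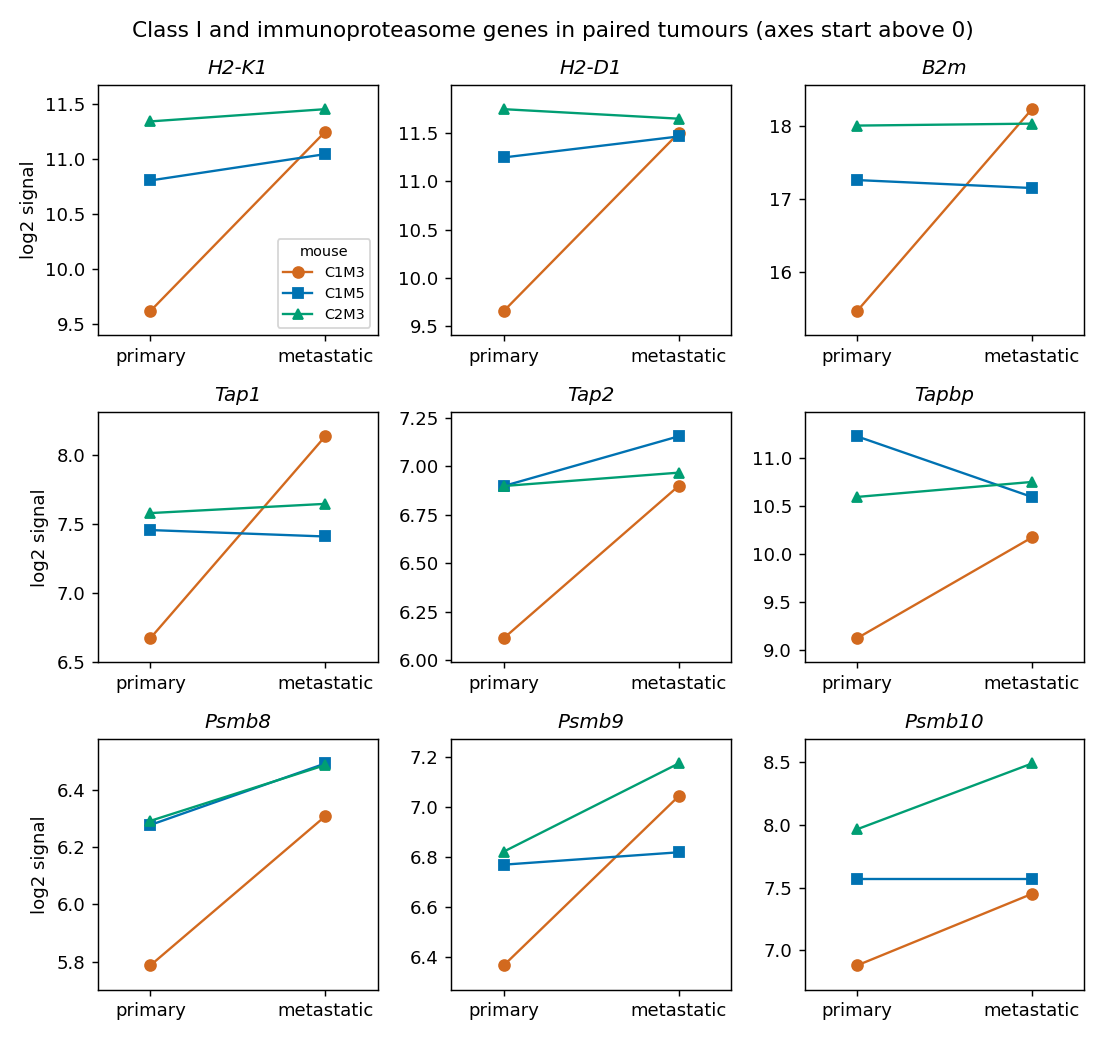
Log2 signal (vertical axes, each with its own range that starts above 0) of the 9 genes in the primary and the metastatic tumour of each mouse, 1 point per array and 1 line per mouse. The primary tumour of C1M3 is the lowest point in all 9 panels, and the line of C1M3 is the steepest in each. For Psmb10 the line of C2M3 rises nearly as much, by 0.52 against 0.57. For Tapbp the line of C1M5 falls, with a difference of -0.63.

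The primary tumour of C1M3 was the lowest of the 6 arrays for 9 of 9 genes, against 16.4% of all genes tested and 23.4% of those above the median level. It lay below the next lowest array by 0.40 for Psmb9 and by up to 1.68 for B2m. For 6 of the 9 genes that gap was wider than the whole range of the other 5 arrays. Primary tumours, with that array among them, varied more than metastatic tumours for 8 of the 9 genes, the exception being Psmb10. Both counts involve that array, and neither was made over all genes, so they are descriptions only. The highest array was the metastatic tumour of C2M3 for 3 genes (H2-K1, Psmb9 and Psmb10), the metastatic tumour of C1M3 for 2 (B2m and Tap1), the metastatic tumour of C1M5 for 2 (Tap2 and Psmb8) and a primary tumour for Tapbp and H2-D1.

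Within C1M3 the metastatic tumour was higher for 9 of 9 genes, against 35.0% of all genes tested, with differences from 0.52 to 2.76 and a median of 1.05, where the median of all genes was -0.02. For each of the 9 genes this was the widest of its 3 within-mouse differences. Within C1M5 it was higher for 5 genes, lower for 3 and equal for Psmb10, with a median of 0.05, and 50.1% of all genes were higher there. Within C2M3 it was higher for 8 of 9 genes, with H2-D1 the exception at -0.10, a median of 0.11 and differences of up to 0.52 for Psmb10, against 58.4% of all genes. With 1 tumour of each kind per mouse, these differences have no replicate within a mouse. All 3 mice had a higher metastatic value for H2-K1, Tap2, Psmb8 and Psmb9, or 4 of 9 genes, against 11.1% of all genes tested.

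**Figure D2:**
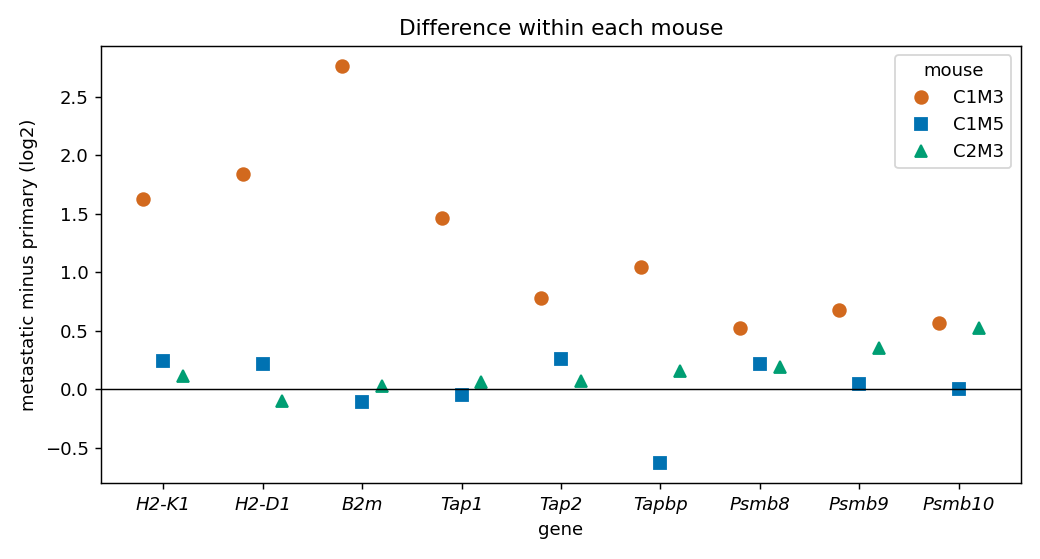
Metastatic minus primary log2 signal (vertical axis) within each mouse for the 9 genes (horizontal axis), 1 point per mouse. The points of C1M3 lie between 0.52 and 2.76 and are the highest for every gene, and those of C1M5 and C2M3 lie between -0.63 and 0.52.

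Without the primary tumour of C1M3, 8 of the 9 genes still had a higher mean in metastatic tumours, where 61.3% of all genes did. The differences then ran from -0.40 for Tapbp to 0.22 for Psmb9. H2-K1 differed by 0.18 (SE 0.22), H2-D1 by 0.04 (SE 0.18), B2m by 0.17 (SE 0.45), Tap1 by 0.21 (SE 0.25) and Tap2 by 0.11 (SE 0.09). Psmb8 differed by 0.14 (SE 0.07) and Psmb10 by 0.07 (SE 0.40). The smallest limma adjusted p of the 9 was 0.614. The median difference over the 9 genes was 0.14 without that array, against 0.37 with all 6 arrays, and the median of all genes tested was 0.04 and 0.02. The 9-gene median was 0.61 without the primary tumour of C1M5, 0.61 without that of C2M3, and 0.16 without both tumours of C1M3.

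**Figure D3:**
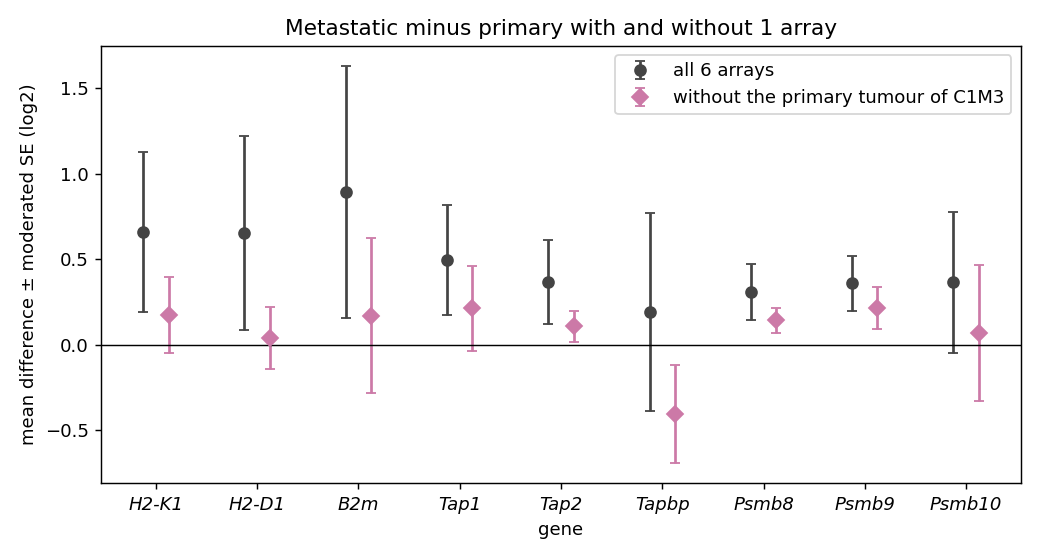
Mean difference between metastatic and primary tumours (vertical axis, log2, bars are the moderated SE of limma) for the 9 genes, with all 6 arrays (circles) and without the primary tumour of C1M3 (diamonds). All 9 estimates are lower without that array, and Tapbp moves from 0.19 to -0.40.

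The 9 genes moved together over the 6 arrays, and less so without the primary tumour of C1M3. Over the 36 pairs of genes, Pearson's r across the 6 arrays ranged from 0.52 to 0.99, with a median of 0.82. Over the other 5 arrays the median was 0.19, the range -0.74 to 0.92, and 16 pairs lay below 0. The arrays share mice and processing, and these values describe 6 arrays only. H2-K1 followed the mean of the other 8 genes most closely, with r = 0.99 over 6 arrays and 0.89 over 5, while Tapbp had 0.76 and -0.54 and Tap2 0.90 and -0.36.

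Among 11066 named genes above the median level, the 8 most like the mean of the 9 over the 6 arrays were Rac3, H2-K2, Slc15a3, H2-Q2, Uba7, Snap23, Chst2 and Ppil3, each with r = 0.99. H2-K2 and H2-Q2 are relatives of the class I heavy chain genes, and H2-K2 had log2 signals of 5.61, 6.43 and 6.59 in primary and 6.43, 6.43 and 6.65 in metastatic tumours of C1M3, C1M5 and C2M3. Slc15a3 encodes a lysosomal peptide transporter and Uba7 the activating enzyme of the ubiquitin-like protein ISG15. Their range over the 6 arrays was 1.40 and 0.71, but that of Rac3, first by r, was 0.21, and r does not weigh the size of a change. Over the 5 arrays without the primary tumour of C1M3 the 8 genes had r between 0.80 and 0.91. Those 5 arrays were among the 6 by which the genes were picked, so these values are no separate check.

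Other genes of class I presentation were given by a list of 18, of which 13 were measured. Of the 13, 11 had a higher mean in metastatic tumours, with a median of 0.20, or 0.07 without the primary tumour of C1M3, and 0 passed limma at an adjusted p under 0.05 or an unadjusted p under 0.05. That array was the lowest for 9 of the 13. H2-M3, a class I molecule that shows formylated peptides, had log2 signals of 6.11, 6.68 and 7.30 in primary and 7.27, 6.96 and 7.85 in metastatic tumours. The mean difference of H2-M3 was 0.67 (SE 0.39, limma adjusted p = 0.842), or 0.37 without the primary tumour of C1M3. Mr1, which shows vitamin metabolites to mucosal T cells, differed by 0.53 (SE 0.23) and was higher in each mouse, by 0.56, 0.24 and 0.78. Without the primary tumour of C1M3 its difference was 0.49. H2-T10 differed by 0.52 (SE 0.33), or 0.16 without that array, and H2-Q4 by 0.42 (SE 0.34), or 0.075 without it. Cd1d1, which shows lipids to NKT cells, was on average lower in metastases, at -0.37 (SE 0.28), or -0.54 without that array. The chaperones of class I folding, named with their values known, differed by 0.06 for Pdia3, 0.24 for Calr and 0.17 for Canx, with adjusted p-values from limma of 0.843 or above. Without the primary tumour of C1M3 these were -0.016, 0.088 and 0.22.

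The constitutive proteasome had another order of arrays. None of its 13 measured subunits had its lowest value in the primary tumour of C1M3, and 10 of the 13 had it in the primary tumour of C2M3, where 26.4% of all genes did. Of the 13, 10 had a higher mean in metastatic tumours, with a median of 0.14, which became 0.25 when the primary tumour of C1M3 was left out and 0.30 when both tumours of that mouse were. With limma 0 of them passed at an adjusted p under 0.05, and 1 had an unadjusted p under 0.05. Psmb1, a non-catalytic beta subunit, had the widest difference, 0.51 (SE 0.22, limma adjusted p = 0.842), and was higher in each metastatic tumour, by 0.48, 0.49 and 0.57. Its difference was 0.44 without the primary tumour of C1M3. Psmb7 was on average lower in metastases, at -0.28 (SE 0.34), and its highest array was the primary tumour of C1M3, without which the difference was 0.0026.

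Each immunoproteasome subunit was also set against the constitutive subunit it replaces, as the log2 difference of the pair within an array after each gene was centred on its mean over the arrays. This could be done for 2 of 3 pairs, since Psmb5 had no probe set with a single symbol. Psmb9 minus Psmb6 was higher by 0.29 in metastatic than in primary tumours, with 0.83, -0.01 and 0.04 within C1M3, C1M5 and C2M3. Psmb10 minus Psmb7 was higher by 0.65, with 1.15, -0.11 and 0.90. With all 6 arrays neither change stood out when the tissue labels were permuted over the arrays, which does not use the pairing by mouse. The 2-sided exact permutation p was 0.5 and 0.6, each 0.6 after adjustment over the 2 pairs. With 3 arrays against 3 this p cannot go below 0.1. Without the primary tumour of C1M3, an alternative chosen after the data were seen, the changes were 0.07 for both pairs. These values compare changes of probe sets and say nothing of the ratio of the proteins.

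Regulators of class I genes and targets of interferon gamma were given by a list of 25 genes, of which 22 were measured. Of the 22, 15 had a higher mean in metastatic tumours and 7 a lower one, with a median of 0.05, or 0.04 with the primary C1M3 array left out and -0.06 with each array centred on its median, and 10 had their lowest value in the primary tumour of C1M3. With limma 0 passed at an adjusted p under 0.05, and 2 had an unadjusted p under 0.05, 1 in each direction. The widest differences were in some interferon targets. Others of the list differed less, at 0.14 for Cd274, 0.04 for Socs1, 0.03 for Cxcl10 and -0.02 for Ido1. Cxcl9, a chemokine that draws T cells, had log2 signals of 5.29, 5.10 and 7.15 in primary and 7.86, 5.54 and 7.45 in metastatic tumours of C1M3, C1M5 and C2M3. Its difference was 1.11 (SE 0.87, limma adjusted p = 0.842). Both tumours of C1M5 and the primary tumour of C1M3 were low, and the other 3 were high. With the primary C1M3 array left out the difference was 0.83. The 4 measured guanylate-binding protein genes, GTPases of cell defence, had higher means in metastatic tumours, at 0.92 for Gbp7 (SE 0.47), 0.88 for Gbp4 (SE 0.37), 0.88 for Gbp2 (SE 0.33) and 0.36 for Gbp3 (SE 0.17). Without the primary tumour of C1M3 these were 0.48, 0.67, 0.63 and 0.24. Gbp2 was higher in each metastatic tumour, by 1.56, 0.18 and 0.90. Ifngr2, a chain of the interferon gamma receptor, differed by 0.38 (SE 0.22), or 0.16 without that array. Ifng itself lay below the median of all genes in every array, between 4.04 and 4.14. So did Socs1, Cxcl10 and Ido1, and 12935 of the 30142 genes tested.

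MHC class II genes, measured in 6 of 7 listed, had a median difference of 0.76, or 0.51 without the primary tumour of C1M3. That array was the lowest for 5 of the 6, and with limma 0 passed at an adjusted or an unadjusted p under 0.05. H2-Ab1, a class II beta chain, had 12.97, 13.25 and 14.67 in primary and 15.04, 13.44 and 15.42 in metastatic tumours. Both tumours of C1M5 and the primary tumour of C1M3 were the low ones.

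Markers of leukocytes and macrophages were lowest in the same array as the 9 genes. By mean level, the metastatic tumour of C2M3 was highest and its primary tumour next, for the 9 genes and for both lists. The order of the remaining arrays differed. Over the 5 arrays other than the primary tumour of C1M3, the mean of the 9 genes lay between 9.50 and 9.85. The 12 macrophage and myeloid markers, all measured, each had their lowest value in the primary tumour of C1M3, as did all 5 leukocyte markers. The mean log2 level of the macrophage list ranged from 6.44 to 8.92 in primary and from 8.14 to 9.07 in metastatic tumours, and that of the leukocyte list from 5.21 to 6.74 and from 6.37 to 6.97. Ptprc, the common leukocyte antigen, had 5.48 in the primary tumour of C1M3 and 6.97 to 7.90 in the other arrays, and Adgre1, the macrophage antigen F4/80, had 5.44 and 7.57 to 9.11. All of these macrophage and leukocyte markers had higher means in metastatic tumours, with medians of 0.70 and 0.50, which became -0.10 and 0.23 without the primary tumour of C1M3. Their part in the class I values was not tested. In bulk tumours, fewer cells of a type and less RNA per cell cannot be told apart.

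The T cell and NK cell markers (11 of 12 measured) had a mean log2 level of 4.45 to 4.84 in primary and 4.70 to 4.96 in metastatic tumours. Of the 11, 6 lay below the median of all genes in every array, namely Cd8a, Ncr1, Klrk1, Gzma, Gzmb and Prf1. The same held for 12935 of the 30142 genes tested. In the primary tumour of C1M3, 4 of the 11 were lowest. The mean was higher in metastatic tumours for 8 and lower for 3, with a median of 0.09. The 3 were Cd4, at -0.18, Cd8b1, at -0.15, and Gzma, at -0.02. Without the primary tumour of C1M3 these were -0.27, -0.45 and -0.02. Nkg7 had the widest difference of the list, 0.82 (SE 0.27, limma adjusted p = 0.842), or 0.76 without the primary tumour of C1M3. It was higher in each metastatic tumour, by 1.10, 0.54 and 0.83. Dendritic cell markers (6 of 6 measured) ranged from 4.81 to 5.13 and from 5.03 to 5.35, with 4 of 6 lowest in the primary tumour of C1M3. B cell markers (3 of 4 measured) ranged from 4.48 to 4.79 and from 4.48 to 4.96.

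Fibroblast markers (4 of 5 measured) were also all lowest in the primary tumour of C1M3. Their mean log2 level was 7.89 there, 10.63 and 11.87 in the primary tumours of C1M5 and C2M3, and 9.60 to 11.43 in metastatic tumours. The adipocyte list (6 of 6) had 5.70 in that same tumour, 9.27 and 11.63 in the other primary tumours and 5.37 to 5.87 in metastatic tumours, with 1 of 6 markers lowest in the primary C1M3 array. The smooth muscle list (4 of 4) had 6.04 in that tumour, 7.70 and 8.64 in the other primary tumours and 6.41 to 6.77 in metastatic tumours, with 2 of 4 lowest there. The endothelial list (6 of 6) had 6.36 in it, 7.21 and 8.62 in the other primary tumours and 6.01 to 7.50 in metastatic tumours, with 1 of 6 lowest there. The ID8, mesothelial and epithelial list (8 of 8) had its lowest mean of the 6 arrays, 10.84, in the primary tumour of C1M3. The metastatic tumour of C1M3 was close, at 10.86. C1M5 was higher, with 12.77 in its primary and 12.89 in its metastatic tumour, and C2M3 had 11.37 and 11.21. Of the 8 markers 2 were lowest in the primary tumour of C1M3, Krt7 at 5.59 and Upk1b at 8.22, against 6.22 to 7.58 and 9.87 to 14.57 in the other arrays. Upk1b had the widest range of the 8 markers, 6.35, and so weighs most in the list mean. Msln was near its lowest there, at 7.21, against 7.15 to 11.13 elsewhere, and Krt19 had 13.99, against 13.41 to 16.65. The remaining markers were not near their lowest there. Krt8 had 12.86 there and 11.20 to 14.20 elsewhere, and Krt18 had 13.00 and 11.32 to 13.33. Upk3b had 15.42 there and 14.48 to 16.06 elsewhere. Wt1, a transcription factor of mesothelium, had 10.44 there and 10.11 to 11.07 elsewhere. None of these lists was tested for a part in the class I values.

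**Figure D4:**
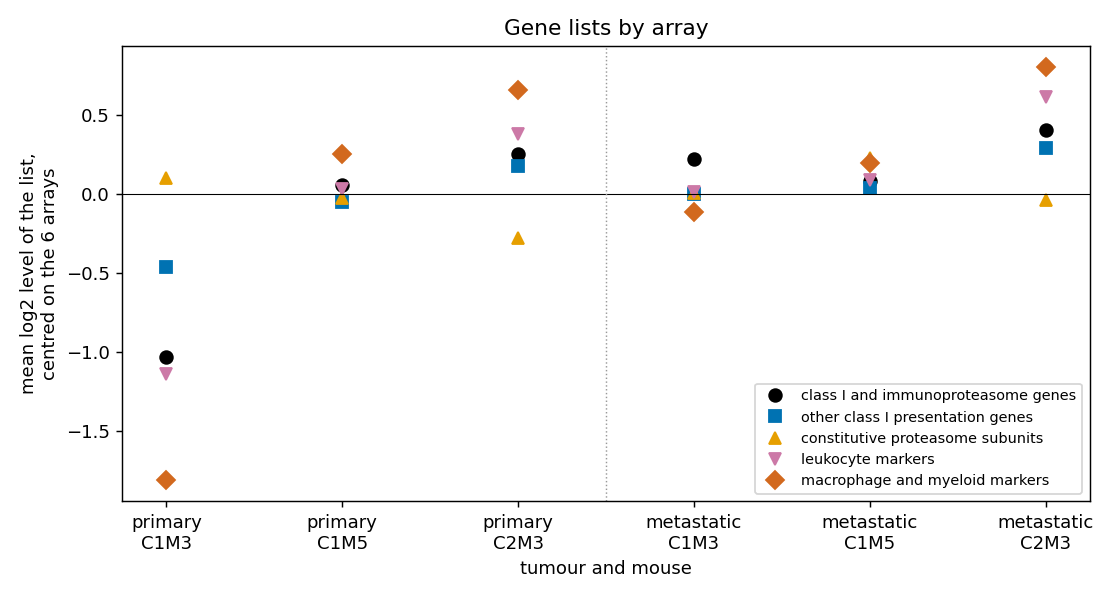
Mean log2 level of each gene list (vertical axis, centred on its mean over the 6 arrays) in each tumour (horizontal axis), 1 point per list and array, with primary tumours left and metastatic tumours right of the dotted line. The 9 class I and immunoproteasome genes lie at -1.03 in the primary tumour of C1M3 and between 0.06 and 0.41 in the other arrays, macrophage and leukocyte markers are also lowest in that tumour, and the constitutive proteasome subunits are not.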

How the data were processed

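Total RNA from 6 fresh frozen tumours, 3 primary and 3 metastatic, was extracted with a column kit, labelled with biotin and measured on 1 array each, per the labels. The deposited values are log2 signals per probe set, made by the authors with RMA and Transcriptome Analysis Console, per the submitters' processing notes, which give no versions. RMA corrects background, applies quantile normalization and summarises probes, so a shift of all genes in 1 tumour would not be seen. The genome build of the annotation is not given in the sources used here.

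Of 65956 probe sets that are not controls, 30604 carried 1 gene symbol, 2146 carried several and 33206 carried none. RefSeq names replaced 827 older symbols by way of Entrez Gene identifiers, and 29837 of the final genes were in the RefSeq table. Each gene was represented by its brightest probe set on average, which gave 30142 genes, with no filter on dim genes. Groups follow the tissue label and mice the donor label.

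The test was that of limma 3.58.1 under R 4.3.3, with tissue as the only term, two-sided, and Benjamini-Hochberg adjustment over all genes at a threshold of 0.05. The fit was tested on simulated data. The donor label pairs the tumours. Over all genes, both tumours' deviations from their group mean had r = -0.05 in C1M3, 0.35 in C1M5 and 0.07 in C2M3. A blocked fit by mouse was an alternative, as were leaving out arrays or mice, centring, probe set averaging, a level filter, array weights and a variance trend.

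The genes and lists were chosen with earlier results of these data known. By rule, all members were named with every value, with up to 6 genes of each other list by size of difference and up to 8 genes most like the members by Pearson's r over the 6 arrays. For the likeness, genes that are predicted, clone-named, microRNA or small nucleolar RNA were left out. Marker genes and other examples were chosen after their values were seen.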

Additional observations from a re-analysis of the deposited data

How the results depend on the processing

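Under all 15 alternatives, limma called 0 of the 9 genes and 0 of all genes tested at an adjusted p under 0.05. Psmb8 without both tumours of C1M3 was the single case of a member with an unadjusted limma p under 0.05, with a difference of 0.20. Its adjusted p from limma was then 0.22. With the mouse as a replicate block the pairing changed no call, and 0 of the 9 genes passed (adjusted p of 0.841 or above). The SE did change. It was 0.16 for Psmb10, against 0.41 without the block, and 0.098 for Psmb8, against 0.16. For B2m and Tap1 it was wider with the block, at 0.76 and 0.40. The smallest unadjusted limma p of the 9 genes with the block was 0.0504, for Psmb8. The count of the 9 genes with a higher metastatic mean lay between 8 and 9 when single arrays were left out, and was 7 without both tumours of C1M3. B2m changed sign without both tumours of C1M3, to -0.041. Tapbp ranged from -0.40, with the primary C1M3 array left out, to 0.65 when single arrays were left out, and changed sign too without both tumours of C1M3 (-0.24) and with array weights (-0.34). The median over the 9 genes lay between 0.14 and 0.61 when single arrays were left out. With each array centred on its median it was 0.26, where the median of all genes was -0.09 in place of 0.02, and with array weights it was 0.22. The median of other class I presentation genes was 0.07 with the primary C1M3 array left out, and that of the constitutive proteasome was 0.30 without both tumours of C1M3. The causes were not tested beyond the arrays left out. Signal over background is not given by the deposited values, and 3 arrays per group limit what size of difference can pass.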
